A study of Mus musculus with 37 samples.

Results

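The 10 genes described here are both corticosteroid receptors, Nr3c1 and Nr3c2, and 8 genes that glucocorticoids are known to induce in brain or other tissues: Fkbp5, Sgk1, Zbtb16, Tsc22d3, Plin4, Pdk4, Cdkn1a and Sult1a1. They were taken by symbol from a table of 56980 genes, each symbol matched 1 row, and all 10 passed the filter on low counts that left 19332 genes for testing. The RNA came from male wild-type C57BL/6J mice, labelled as brain in the sample records and as medial prefrontal cortex in the series title. Treatment began on postnatal day 25 in adolescents or on postnatal day 55 in adults. The mice received oral antibiotics or stayed on water, and were injected subcutaneously over 5 days with morphine at 15 mg/kg or with saline. The question posed by the series title is whether the effects of antibiotics depend on age.

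Glucocorticoid hormones, chiefly corticosterone in mice, enter cells and bind a receptor that chaperones hold in the cytoplasm. The loaded receptor moves to the nucleus, binds DNA at glucocorticoid response elements and switches target genes on or off. In brain the mineralocorticoid receptor binds the same hormone with higher affinity than the glucocorticoid receptor, and Fkbp5, a target of both, lowers the hormone binding of the receptor complex in a feedback loop.

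The 8 groups held 37 libraries, of which 35 were used. Among adults, antibiotics with morphine had 4 libraries, antibiotics with saline 5, water with morphine 5 and water with saline 3. Among adolescents, antibiotics with morphine had 5 libraries, antibiotics with saline 3, water with morphine 5 and water with saline 5. The 35 totals ran from 10630727 to 31560468 counts with a median of 15910823, and the 2 libraries left out held 25165 and 58764 counts. No record says that the libraries of a group came from separate mice, whether mice were pooled, or which antibiotics were given, so p-values measure the spread between these libraries. Levels below are CPM, read counts per library size after scaling by the trimmed mean of M values, and every difference is a log2 fold change from 1 edgeR quasi-likelihood fit, called at an adjusted p under 0.05. In bulk tissue, fewer cells of a type and less RNA per cell cannot be told apart. Markers of cortical excitatory neurons were present in every library, with a summed level of 1460 to 2328 CPM. Adolescent water saline replicate 1 stood apart, with 960.5 CPM of striatal markers and 18570 CPM of mature oligodendrocyte markers, against at most 158.1 and 6174 CPM in the other 34 libraries. Results for the 10 genes are given below also without it where this changed a call. Adult antibiotics saline replicate 2 also differed from its group. The chi-square per gene between its read counts and those of the group's other libraries was 34.4 to 53.98. Among those other libraries it was 3.97 to 13.5. That replicate was left out only in the fits that drop single libraries.

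Promoter windows, 250 bases before to 50 bases after an annotated start, are shown for the 3 genes that passed in the antibiotics comparisons and for Sgk1, the one gene whose windows held a full match to the palindromic receptor motif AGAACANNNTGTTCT. Sequences are from RefSeq (GRCm38.p6). The windows searched were 16, for 8 of the 10 genes, and Zbtb16 and Nr3c1 were not searched. Both strands were searched, and capitals mark the full motif and single copies of its arms, TGTTCT or AGAACA, outside it. Across 32851 windows of this length, 3 (0.00913%) held the full motif and 6233 (19%) at least 1 arm.
Plin4: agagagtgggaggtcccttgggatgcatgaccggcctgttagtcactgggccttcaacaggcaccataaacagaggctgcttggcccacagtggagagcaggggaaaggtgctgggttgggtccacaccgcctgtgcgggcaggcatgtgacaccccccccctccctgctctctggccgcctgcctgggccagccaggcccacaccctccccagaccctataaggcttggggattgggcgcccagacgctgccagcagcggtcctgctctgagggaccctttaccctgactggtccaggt
Fkbp5: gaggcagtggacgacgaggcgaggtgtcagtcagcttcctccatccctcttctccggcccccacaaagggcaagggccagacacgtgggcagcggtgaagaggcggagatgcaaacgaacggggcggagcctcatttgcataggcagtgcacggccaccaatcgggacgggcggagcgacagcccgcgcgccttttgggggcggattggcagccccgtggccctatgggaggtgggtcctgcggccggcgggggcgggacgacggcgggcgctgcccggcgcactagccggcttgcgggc
Sult1a1: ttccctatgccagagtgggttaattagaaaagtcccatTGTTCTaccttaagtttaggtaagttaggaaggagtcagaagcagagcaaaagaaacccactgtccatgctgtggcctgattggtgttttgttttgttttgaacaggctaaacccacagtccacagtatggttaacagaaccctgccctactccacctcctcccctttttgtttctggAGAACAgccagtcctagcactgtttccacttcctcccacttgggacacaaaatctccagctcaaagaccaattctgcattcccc
Sgk1: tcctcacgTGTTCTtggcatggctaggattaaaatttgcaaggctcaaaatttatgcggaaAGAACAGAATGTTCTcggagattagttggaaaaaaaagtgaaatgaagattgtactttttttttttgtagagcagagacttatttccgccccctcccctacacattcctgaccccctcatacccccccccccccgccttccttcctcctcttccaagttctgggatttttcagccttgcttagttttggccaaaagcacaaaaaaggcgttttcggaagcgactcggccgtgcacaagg
The Plin4 window (chr17:56109733-56110032, minus strand) and the Fkbp5 window (chr17:28486100-28486399, minus strand) held neither the motif nor an arm. The Sult1a1 window (chr7:126676369-126676668, minus strand) held an arm that began 212 bases before the start and another that began 34 bases before it. In Sgk1, 1 of 6 windows (chr10:21993640-21993939, plus strand) held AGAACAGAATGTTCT, which began 189 bases before the start, and an arm that began 242 bases before it. Sgk1 was chosen for display after this search was seen, and matches are a description of these windows only. Receptor-bound elements outside promoters, such as those known in the introns of Fkbp5, were not searched.

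Per kilobase of exon, Nr3c1, the glucocorticoid receptor (ENSMUSG00000024431, chr18:39410545-39519421, minus strand), averaged 13.8 CPM per kilobase over the 35 libraries. Zbtb16 at 13.7 and Tsc22d3 at 13.6 CPM per kilobase lay beside it, and which of the 3 was highest changed between libraries: Tsc22d3 in 14, Nr3c1 in 11 and Zbtb16 in 10. Sgk1 followed at 11.1 CPM per kilobase and exceeded all 3 in 2 libraries. Cdkn1a at 5.42, Sult1a1 at 5.21, Nr3c2 at 4.90 and Fkbp5 at 3.39 CPM per kilobase formed the middle, and Pdk4 at 1.92 and Plin4 at 1.14 CPM per kilobase were the lowest. In 6 of the 35 libraries Pdk4 was below Plin4 and lowest of all, and in adults on antibiotics with morphine Plin4 averaged 3.61 CPM per kilobase and Pdk4 2.03. Nr3c2, the mineralocorticoid receptor (ENSMUSG00000031618, chr8:76899442-77245012, plus strand), was below Nr3c1 in all 35 libraries, with a ratio of Nr3c1 to Nr3c2 per kilobase of 2.34 to 3.58. It shares 247 bases with Gm10649 on the opposite strand. The genes differed most in how much they varied. Nr3c1 had a coefficient of variation of 7.14% over the 35 libraries, and its highest library was 1.33 times its lowest. Plin4 had one of 102% and a highest library 36.3 times its lowest. No gene was at 0 counts in any library, and the lowest count was 9, for Plin4.

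**Figure D1:**
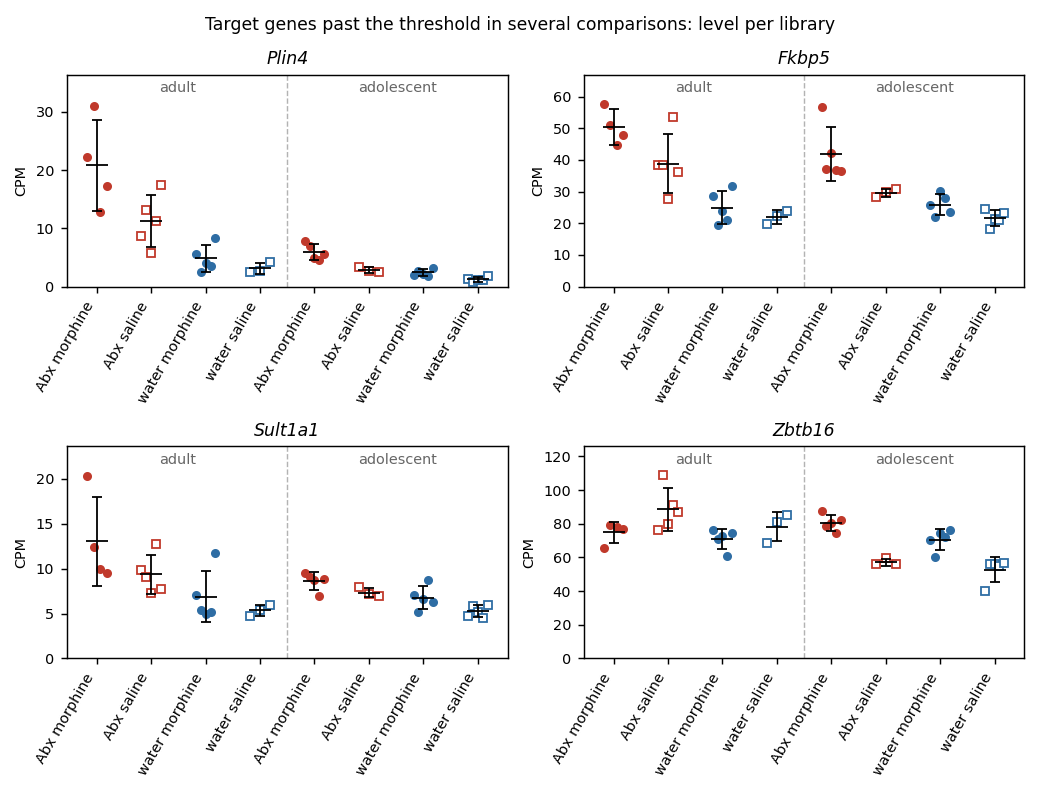
Level of Plin4, Fkbp5, Sult1a1 and Zbtb16 in each of the 35 libraries, in CPM on the vertical axis, with the 8 groups along the horizontal axis, adults left of the dashed line and adolescents right of it. Filled circles are morphine and open squares saline libraries, red is antibiotics and blue is water, and bars show the mean and SD. Plin4 reached 31.0 CPM in adults on antibiotics with morphine and was at most 1.89 CPM in adolescents on water with saline.

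With antibiotics, 3 of the 10 genes passed when averaged over the 4 combinations of age and injection, and Plin4, Fkbp5 and Sult1a1 were all higher than on water. Over all genes tested, 10.2% passed in that comparison and 5.16% were higher. Plin4 rose by 1.59 on the log2 scale (SE 0.17, adjusted p = 2.05e-07), Fkbp5 by 0.74 (SE 0.08, adjusted p = 2.54e-07) and Sult1a1 by 0.64 (SE 0.11, adjusted p = 0.000256), each by the quasi-likelihood F test of edgeR. The receptors did not pass, with 0.10 for Nr3c2 (adjusted p = 0.0700, edgeR) and -0.06 for Nr3c1 (adjusted p = 0.207, edgeR). Without adolescent water saline replicate 1, Nr3c2 passed at 0.12 (adjusted p = 0.00605) and so did Sgk1 at 0.33 (adjusted p = 0.0306, edgeR).

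Plin4 (ENSMUSG00000002831, chr17:56100591-56109803, minus strand) encodes perilipin 4, a coat protein of lipid droplets. Among morphine-injected adults it was at 22.3, 31.0, 12.9 and 17.3 CPM on antibiotics, against 5.68, 2.56, 4.00, 3.61 and 8.41 CPM on water. Among saline-injected adults it was at 8.78, 13.2, 5.76, 11.3 and 17.5 CPM on antibiotics, against 2.46, 2.77 and 4.24 CPM on water. Every adult library on antibiotics lay above the adult water libraries of the same injection. Morphine-injected adolescents had 7.85, 7.02, 4.91, 4.54 and 5.53 CPM on antibiotics, against 2.09, 2.75, 2.26, 1.88 and 3.29 CPM on water. Saline-injected adolescents had 3.41, 2.66 and 2.58 CPM on antibiotics, against 1.27, 0.854, 1.06, 1.11 and 1.89 CPM on water. In both adolescent strata the groups did not overlap either. Plin4 rose with antibiotics by 2.08 (SE 0.29, adjusted p = 7.44e-05) in morphine-injected adults, by 1.83 (SE 0.35, adjusted p = 0.0421) in saline-injected adults and by 1.29 (SE 0.30, adjusted p = 0.0307) in morphine-injected adolescents on the log2 scale (edgeR). In saline-injected adolescents the difference was 1.17 (SE 0.39, adjusted p = 0.293, edgeR).

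Fkbp5 (ENSMUSG00000024222, chr17:28399094-28517527, minus strand) encodes the immunophilin FKBP51 of the receptor's chaperone complex. In morphine-injected adults it was at 57.8, 51.2, 44.8 and 47.8 CPM on antibiotics, against 28.5, 19.6, 23.9, 21.1 and 31.7 CPM on water. In saline-injected adults it was at 38.2, 38.5, 27.6, 53.5 and 36.2 CPM on antibiotics, against 19.7, 22.3 and 23.9 CPM on water. The adult groups did not overlap, and the libraries on antibiotics with saline spread from just above the water libraries with saline to the level of antibiotics with morphine. The lowest of them, at 27.6 CPM, was below 28.5 and 31.7 CPM in adults on water with morphine. For morphine-injected adolescents the values were 56.7, 37.1, 42.3, 36.9 and 36.6 CPM on antibiotics, against 25.6, 21.97, 30.1, 28.1 and 23.7 CPM on water. For saline-injected adolescents they were 28.3, 29.9 and 30.8 CPM on antibiotics, against 24.6, 18.1, 21.3, 20.9 and 23.4 CPM on water. These groups did not overlap, although saline-injected adolescents on antibiotics were at the level of the highest morphine-injected adolescents on water. Fkbp5 rose with antibiotics by 1.01 (SE 0.15, adjusted p = 0.00026) in morphine-injected adults and by 0.70 (SE 0.14, adjusted p = 0.0102) in morphine-injected adolescents (edgeR). It did not pass in saline-injected adults, with 0.81 (SE 0.17, adjusted p = 0.0744), or in saline-injected adolescents, with 0.44 (SE 0.17, adjusted p = 0.353). In a fit without adolescent water saline replicate 1 the difference in saline-injected adults passed, at 0.81 with an adjusted p of 0.0440 in edgeR. Without replicate 1 of adolescent antibiotics morphine, the highest library of its group, the difference in morphine-injected adolescents was 0.56 with an adjusted p of 0.0603 in edgeR.

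Sult1a1 (ENSMUSG00000030711, chr7:126672865-126676432, minus strand) encodes a phenol sulfotransferase. In morphine-injected adults it was at 20.3, 12.4, 9.96 and 9.57 CPM on antibiotics, against 7.09, 5.44, 4.98, 5.17 and 11.8 CPM on water. Replicate 5 on water lay inside the range of the antibiotics libraries, so these groups overlapped. Across all 17 antibiotics libraries it ran from 6.93 to 20.3 CPM with a median of 9.07, against 4.50 to 11.8 CPM with a median of 5.66 in the 18 water libraries. Sult1a1 rose by 0.91 (SE 0.21, adjusted p = 0.0167, edgeR) in morphine-injected adults and passed in none of the other 3 strata. Without replicate 1 of adult antibiotics morphine that difference was 0.61 with an adjusted p of 0.144 in edgeR. Leaving out 1 library ended the call in 4 of 9 fits. It was also lost with no filter on low counts (adjusted p = 0.0567) and with the compared groups alone (adjusted p = 0.263, edgeR). The annotation places 61 bases of Sult1a1 under exons of Sgf29 on the opposite strand, and 17 bases of Plin4 under Hdgfl2. Whether reads were counted by strand is not stated.

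**Figure D2:**
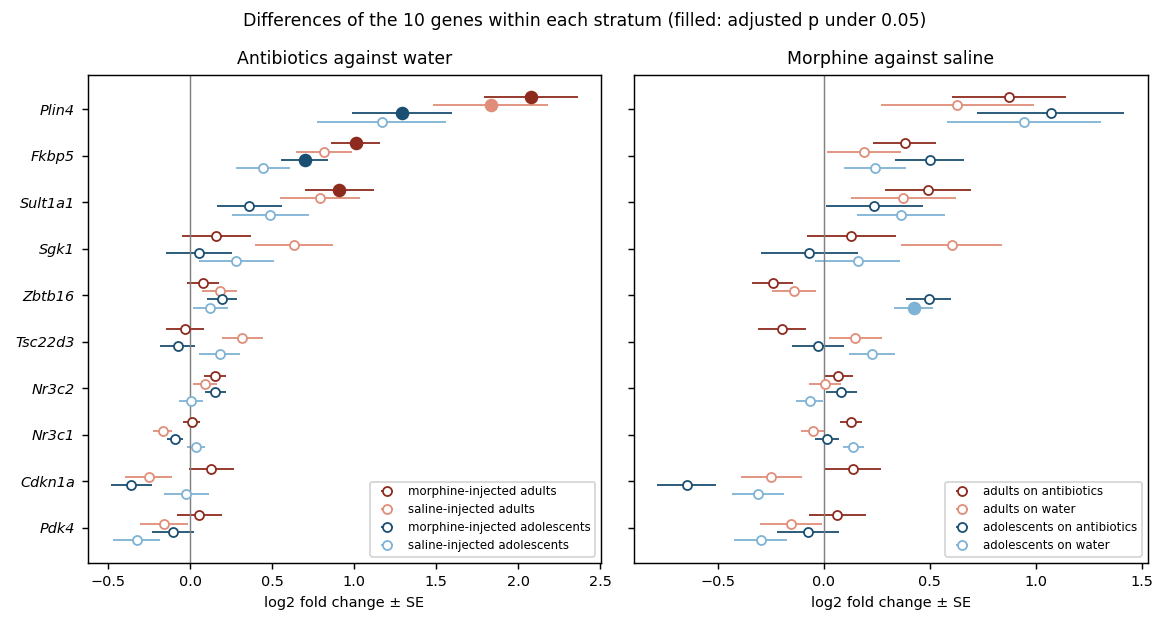
Log2 fold change with its standard error for each of the 10 genes, antibiotics over water in 4 strata on the left and morphine over saline in 4 strata on the right. Filled points have an adjusted p under 0.05. Plin4 has the largest fold change for antibiotics in each stratum, 1.17 to 2.08, and Zbtb16 is the one gene filled on the morphine side, in adolescents on water.

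Set against all genes, 3 of 10 passed in morphine-injected adults, all higher, where 1.92% of genes passed and 0.916% were higher. In morphine-injected adolescents 2 of 10 passed, both higher, where 1.11% passed and 0.481% were higher. In saline-injected adults 1 of 10 passed where 0.0310% of genes passed, all of them higher. In saline-injected adolescents 0 of 10 passed where 0.0103% of genes passed. There 4 of the 10 had unadjusted p values under 0.05 in edgeR, and DESeq2 and limma-voom each called 0. Fkbp5 and Plin4 were without overlap and higher on antibiotics in all 4 strata. Over all genes, 2.96% were higher without overlap in morphine-injected adults, 3.95% in saline-injected adults, 2.07% in morphine-injected adolescents and 2.64% in saline-injected adolescents. Sult1a1 was also higher without overlap in both saline strata, and Sgk1 and Tsc22d3 in saline-injected adults. Nr3c1 was lower without overlap in saline-injected adults, as were 3.42% of genes, and Cdkn1a in morphine-injected adolescents, as were 2.28%. The 4 antibiotics comparisons share no library with each other, while the morphine and age comparisons below draw on the same libraries. Leaving out single libraries ended the Plin4 call in saline-injected adults in 6 of 8 fits, with an adjusted p of up to 0.512, and in morphine-injected adolescents in 6 of 10 fits, with one of up to 0.108. Without adult antibiotics saline replicate 2, the library that differed from its group, Plin4 in saline-injected adults was at 1.77 (adjusted p = 0.0721, edgeR). The calls averaged over the strata for Plin4, Fkbp5 and Sult1a1 were kept in all 35 fits that left out 1 library.

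With all 35 libraries the other 5 target genes did not pass with antibiotics in any stratum or in the average. Sgk1 (ENSMUSG00000019970, chr10:21882184-21999903, plus strand), a serum- and glucocorticoid-regulated kinase, had 58.4, 52.3, 50.4, 72.1 and 79.0 CPM in saline-injected adults on antibiotics, against 42.3, 34.4 and 44.2 CPM on water. The groups did not overlap, as for 3.95% of genes in the higher direction, and the difference was 0.63 (SE 0.24, adjusted p = 0.409, edgeR). Tsc22d3 (ENSMUSG00000031431, chrX:140539528-140600659, minus strand) encodes the anti-inflammatory protein GILZ, and had 64.3, 60.4, 56.7, 77.3 and 67.7 CPM in saline-injected adults on antibiotics, against 55.0, 51.0 and 51.3 CPM on water. Those groups did not overlap either, as for the same 3.95% of genes, with a difference of 0.32 (SE 0.13, adjusted p = 0.440, edgeR). Over the 8 groups the means of Tsc22d3 lay between 52.4 and 65.3 CPM. Pdk4 (ENSMUSG00000019577, chr6:5483351-5496309, minus strand), a kinase that inhibits pyruvate dehydrogenase, had group means of 5.78 to 7.66 CPM.

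**Figure D3:**
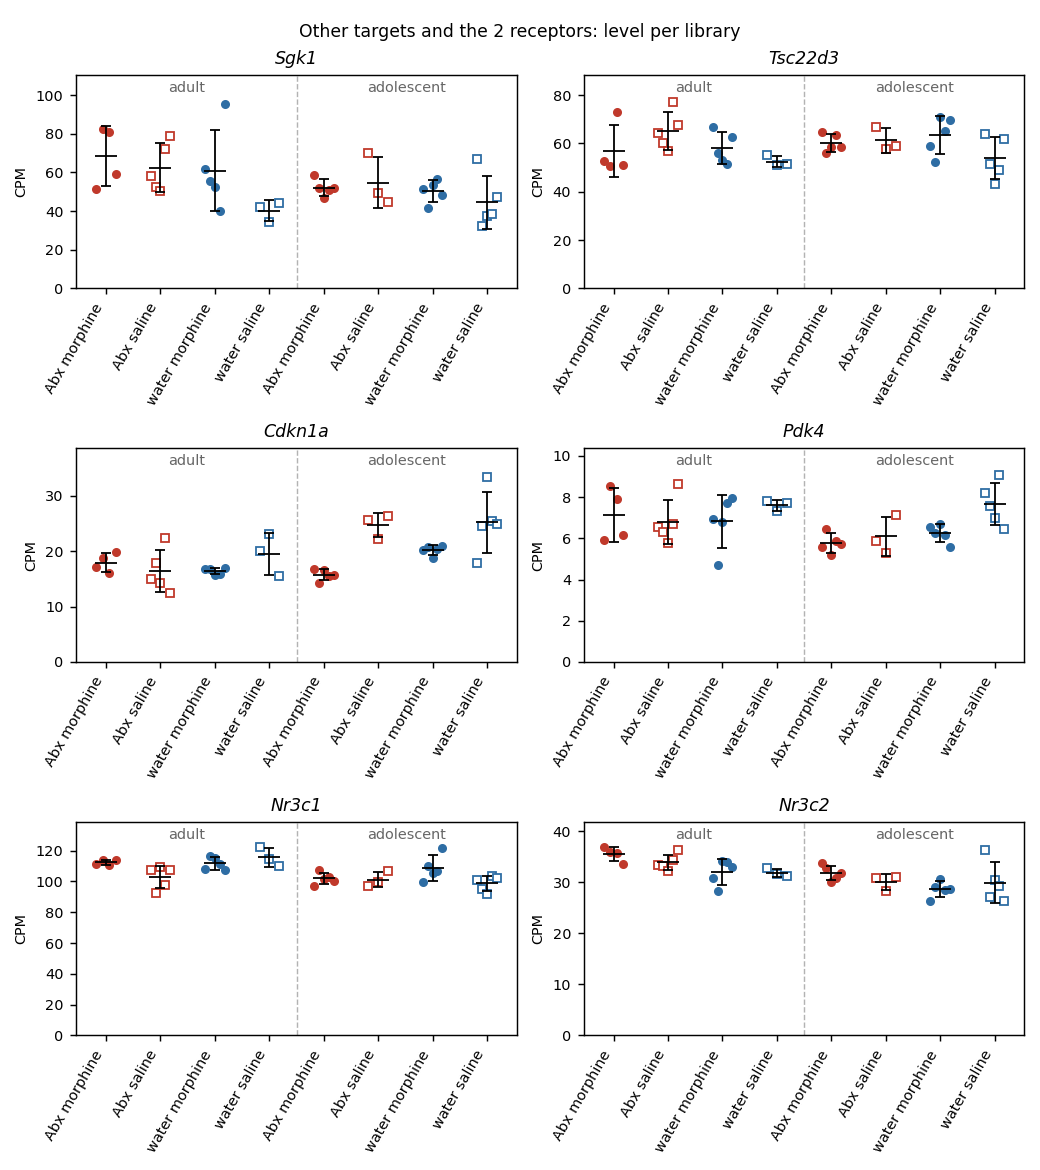
Level of Sgk1, Tsc22d3, Cdkn1a, Pdk4, Nr3c1 and Nr3c2 in each of the 35 libraries, in CPM on the vertical axis, with the groups, symbols and bars of the plot of Plin4, Fkbp5, Sult1a1 and Zbtb16 levels. Nr3c1 stayed between 91.8 and 122 CPM, and Cdkn1a was highest in adolescents on water with saline at 25.2 ± 5.53 CPM (SD, n = 5).

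With morphine, 1 of the 10 genes passed in adolescents on water, where 0.331% of genes passed and 0.186% were higher, and that gene was Zbtb16. Zbtb16 (ENSMUSG00000066687, chr9:48654297-48836222, minus strand) encodes the zinc finger transcription factor PLZF. It was at 70.3, 59.98, 74.5, 71.95 and 76.2 CPM with morphine, against 39.8, 55.9, 56.0, 55.2 and 57.0 CPM with saline. The groups did not overlap, which held for 0.652% of genes in the higher direction. Zbtb16 rose by 0.42 (SE 0.09, adjusted p = 0.0309, edgeR). In adolescents on antibiotics it was at 87.4, 78.7, 80.2, 74.3 and 82.5 CPM with morphine, against 56.1, 59.7 and 56.0 CPM with saline. Those groups did not overlap either, as for 4.10% of genes in the higher direction and for Fkbp5 and Plin4, with a difference of 0.50 (SE 0.11, adjusted p = 0.0718, edgeR). On water the lowest saline value was from adolescent water saline replicate 1, the library with the striatal and oligodendrocyte markers. Without it the difference in adolescents on water was 0.34 with an adjusted p of 0.0947 in edgeR, and leaving out 1 library ended the call in 6 of 10 fits.

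Adults did not show a higher level of Zbtb16 with morphine. Adults on antibiotics had 65.7, 79.3, 77.9 and 76.9 CPM with morphine, against 76.1, 109, 79.8, 91.2 and 86.8 CPM with saline. Adults on water had 76.4, 71.0, 72.5, 60.9 and 74.4 CPM with morphine, against 68.5, 81.0 and 85.3 CPM with saline. Both pairs overlapped, and the differences were -0.24 (SE 0.10, adjusted p = 0.517) and -0.14 (SE 0.10, adjusted p = 1) in edgeR. Tested directly, the morphine difference of Zbtb16 averaged over antibiotics and water was lower in adults than in adolescents by a log2 difference of -0.65 (SE 0.10, adjusted p = 0.00463, edgeR). It was the one gene of 19332 to pass that test (0.00517%). Zbtb16 passed it in all 35 fits that left out 1 library and under every other setting tried. Without adolescent water saline replicate 1 the difference was -0.61 with an adjusted p of 0.00108.

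**Figure D4:**
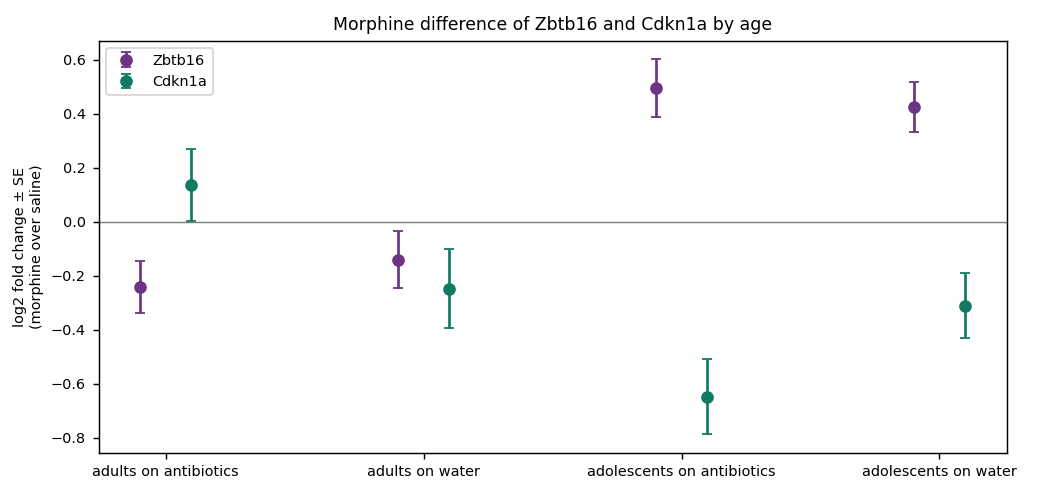
Log2 fold change of morphine over saline with its standard error for Zbtb16 and Cdkn1a in adults and adolescents on antibiotics and on water. Zbtb16 lies above 0 in both adolescent strata, at 0.50 and 0.42, and below 0 in both adult strata, at -0.24 and -0.14.

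Clock genes moved in the same comparison. Of 12 clock genes, 7 passed and were higher with morphine in adolescents on water, where 0.186% of all genes were higher, among them Per2 at 0.59 (adjusted p = 0.000199) and Hlf at 0.41 (adjusted p = 0.00782, edgeR). Their summed level was 1543 to 1651 CPM with morphine, against 1328 to 1451 CPM with saline in those mice. In adolescents on antibiotics it was 1486 to 1592 CPM with morphine, against 1388 to 1508 CPM with saline, and 1 of the 12 passed where 0.0466% of all genes did. In adults it was 1535 to 1574 CPM with morphine against 1525 to 1616 CPM with saline on antibiotics, and 1470 to 1572 CPM with morphine against 1445 to 1555 CPM with saline on water, where 0 of 12 and 0% of all genes passed in either. Averaged over age and drink, Cry1 at 0.45 (adjusted p = 4.5e-07, edgeR), Per2, Hlf and Tef were higher with morphine and Nr1d1 was lower. There 0.316% of all genes passed, and the sum joins genes that moved in opposite directions. With water and saline, Per2, Per3, Nr1d2 and Hlf were higher in adults and Nr1d1 lower, where 3.39% of all genes passed. In the average over treatments Per2, Per3, Cry1, Nr1d2, Hlf and Arntl were higher in adults and Dbp and Nr1d1 lower. There 20.3% of all genes passed. The mean log2 CPM of the clock genes had a Pearson correlation of 0.712 with Zbtb16 over the 35 libraries. It correlated at 0.545 with Plin4, 0.387 with Sult1a1, 0.361 with Fkbp5 and -0.507 with Cdkn1a. With antibiotics, Cry1 was the clock gene that passed in the average, at 0.19 (adjusted p = 0.00894, edgeR), where 10.2% of all genes passed. In morphine-injected adults Cry1 was higher at 0.37 (adjusted p = 0.0264) and Dbp lower at -0.30 (adjusted p = 0.00422, edgeR). There 1.92% of all genes passed. All 12 clock genes were detected in every group, and their part in the results for the 10 genes was not tested.

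Cdkn1a (ENSMUSG00000023067, chr17:29090976-29100727, plus strand) encodes the cell cycle inhibitor p21. In adolescents on antibiotics it was at 16.8, 14.3, 16.6, 15.5 and 15.7 CPM with morphine, against 25.5, 22.2 and 26.3 CPM with saline. The groups did not overlap, as for 4.43% of genes in the lower direction. The difference of -0.65 (SE 0.14, adjusted p = 0.0713, edgeR) did not pass and was the smallest p of the 10 genes there. In that comparison 0.0466% of genes passed and 0 of the 10, although 4 of them had unadjusted p values under 0.05 in edgeR. DESeq2, limma-voom and the fit without adolescent water saline replicate 1 each called 2 of the 10, Cdkn1a and Zbtb16, with an adjusted p of 0.00900 for both in the last of these. In adolescents on water Cdkn1a was at 20.3, 20.8, 18.7, 20.5 and 20.99 CPM with morphine, against 17.8, 24.6, 33.4, 25.4 and 24.8 CPM with saline, and the groups overlapped. Adults on antibiotics had 17.1, 18.7, 15.996 and 19.9 CPM with morphine, against 15.1, 17.9, 14.2, 22.3 and 12.5 CPM with saline. Adults on water had 16.8, 16.7, 15.7, 15.8 and 17.0 CPM with morphine, against 20.02, 23.0 and 15.5 CPM with saline. Cdkn1a overlaps 273 bases of AC167363.2 on the opposite strand.

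In adults 0 of the 10 genes passed with morphine, on antibiotics or on water, where 0% of genes passed. Nr3c1 was higher without overlap with morphine in adults on antibiotics, as were 1.24% of genes. In edgeR 5 of the 10 on antibiotics and 1 on water had an unadjusted p under 0.05, and DESeq2 and limma-voom called 0 of them. The smallest p was that of Plin4 on antibiotics, with 0.87 (SE 0.27, adjusted p = 0.349), and that of Sgk1 on water, with 0.60 (SE 0.24, adjusted p = 1). Averaged over the 4 combinations of age and drink, Plin4 rose with morphine by 0.88 (SE 0.17, adjusted p = 0.0173, edgeR), and it was the 1 of the 10 genes to pass where 0.316% of genes passed and 0.129% were higher. Fkbp5 at 0.33 (SE 0.08, adjusted p = 0.0575) and Cdkn1a at -0.27 (SE 0.07, adjusted p = 0.0670) did not pass in edgeR. The Plin4 call was lost in 2 of 35 fits that left out 1 library, with adjusted p values of 0.0589 without adolescent antibiotics saline replicate 5 and 0.0508 without adult water saline replicate 1. DESeq2, limma-voom and the 34 libraries without adolescent water saline replicate 1 each called Plin4, Fkbp5 and Cdkn1a.

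Between ages, 5 of the 10 genes passed when averaged over the 4 treatments, 4 of them higher and 1 lower in adults, where 20.3% of genes passed, 9.11% higher and 11.2% lower. In adults both receptors were higher than in adolescents, Nr3c2 by 0.14 (SE 0.04, adjusted p = 0.00359) and Nr3c1 by 0.11 (SE 0.03, adjusted p = 0.00419). Plin4 was higher in adults by 1.52 (SE 0.17, adjusted p = 1.80e-07) and Zbtb16 by 0.28 (SE 0.05, adjusted p = 0.00015), while Cdkn1a was lower, at -0.27 (SE 0.07, adjusted p = 0.00458, all edgeR). These 5 calls were kept in all 35 fits that left out 1 library and under every other setting tried.

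Within treatments, the receptor difference passed once. With water and saline Nr3c1 was at 122, 115 and 110 CPM in adults, against 101, 94.8, 91.8, 104 and 102 CPM in adolescents. The groups did not overlap, as for 6.09% of genes in the higher direction, and the log2 fold change was 0.23 (SE 0.06, adjusted p = 0.0191, edgeR). It was lost without adult water saline replicate 1, with an adjusted p of 0.127, or replicate 3, with one of 0.0614. Without adolescent water saline replicate 1, Cdkn1a passed in this comparison at -0.46 (adjusted p = 0.0306, edgeR). Zbtb16 was higher in adults in the same comparison by 0.58 (SE 0.10, adjusted p = 0.00186), so 2 of 10 genes passed where 3.39% of genes did and 1.47% were higher. With antibiotics and saline 3 of the 10 passed where 1.39% of genes did, 0.388% higher and 0.998% lower, namely Plin4 at 1.98 (SE 0.35, adjusted p = 0.00228), Zbtb16 at 0.63 (SE 0.11, adjusted p = 0.00132) and Cdkn1a at -0.60 (SE 0.14, adjusted p = 0.0235). The Cdkn1a call was lost in 5 fits that left out 1 library, with an adjusted p of up to 0.161. With antibiotics and morphine Plin4 passed alone at 1.78 (SE 0.28, adjusted p = 0.000439), where 1.87% of genes passed and 0.740% were higher. With water and morphine 0 of the 10 passed in edgeR where 0.626% of genes did. There 3 of the 10 had unadjusted p values under 0.05, and DESeq2 and limma-voom called 0. The smallest p was that of Plin4, with 0.999 (SE 0.32, adjusted p = 0.163, edgeR). Plin4 was higher in adults without overlap in every treatment but water with morphine, where Cdkn1a was lower without overlap, as were 1.85% of genes. Nr3c2 and Zbtb16 were higher in adults without overlap with antibiotics and saline, as were 4.72% of genes, and Nr3c1 and Sult1a1 with antibiotics and morphine, as were 2.82%. Zbtb16 passed between ages in the saline comparisons and was at 0.01 with water and morphine and -0.11 with antibiotics and morphine.

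The antibiotics difference was also compared between ages, and antibiotics were compared between morphine and saline. The antibiotics difference of Plin4 was larger in adults by 0.73 (SE 0.34) and that of Fkbp5 by 0.34 (SE 0.16), each with an adjusted p of 0.941 in edgeR. Their unadjusted p values were 0.0411 and 0.0400, 0 of 19332 genes passed (0%), and DESeq2 and limma-voom called 0 as well. A dependence of the antibiotics difference on morphine was called for 0 of the 10 genes in adolescents, where 0.0621% of genes passed, and for 0 in adults, where 0.00517% passed. At an unadjusted p under 0.05 there were 0 of the 10 in adolescents and 2 in adults, and DESeq2 and limma-voom called 0 in both. The smallest p in adolescents was that of Cdkn1a at -0.34 (SE 0.19, adjusted p = 0.796) and in adults that of Nr3c1 at 0.18 (SE 0.08, adjusted p = 1).

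Fkbp5, Sult1a1 and Plin4 varied together across libraries. Over the 35 libraries the log2 CPM of Fkbp5 and Sult1a1 had a Pearson correlation of 0.876, that of Fkbp5 and Plin4 one of 0.828, and that of Plin4 and Sult1a1 one of 0.790. After the group means were removed these were 0.676, 0.561 and 0.455. Sgk1 and Tsc22d3 correlated at 0.606 over all libraries and at 0.660 within groups. The values in a library share its depth and dissection, so these are descriptions without a test. Of 16366 genes with a mean of at least 1 CPM, the 10 genes and those without a symbol were set aside. Among the rest, the log2 CPM most like that of Fkbp5 over the same 35 libraries was that of Rbm3 at 0.925. Etnppl followed at 0.918, Cirbp at 0.905, Rbm3os at 0.895, Arhgef10l at 0.883 and Sumo3 at 0.865. Within groups their correlations with Fkbp5 were 0.64, 0.596, 0.579, 0.536, 0.422 and 0.589 in that order, each below the 0.676 of Sult1a1. Rbm3 and Rbm3os overlap on opposite strands, so their counts may not be separate.

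**Figure D5:**
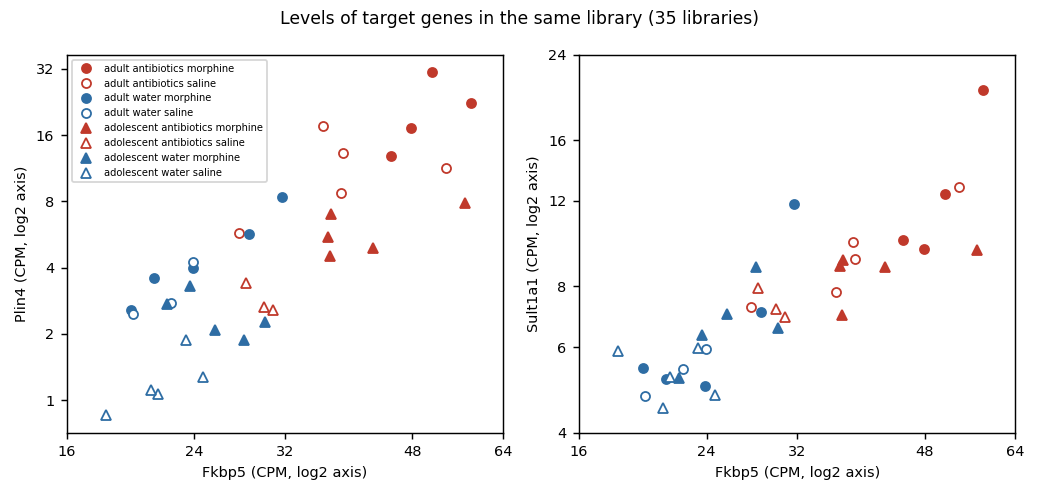
Level of Plin4 (left) and Sult1a1 (right) against Fkbp5 in the same library, in CPM on log2 axes, for 35 libraries. Circles are adults and triangles adolescents, red is antibiotics and blue is water, and filled symbols are morphine. Antibiotics libraries lie towards the upper right, with Fkbp5 at 27.6 to 57.8 CPM against 18.1 to 31.7 CPM in water libraries.

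Other genes of the pathway were counted from 3 lists. Of 29 tested genes from a list of 30 other glucocorticoid-induced genes, 10 rose and 0 fell with antibiotics in the average over strata, and 19 did not pass. Over all genes 5.16% rose and 5.05% fell in that comparison. The list's median log2 fold change was 0.11, against -0.001 over all genes. Among those that rose were Hif3a, a hypoxia-inducible factor subunit, by 0.63 (adjusted p = 0.000322), Pnpla2, the triglyceride lipase ATGL, by 0.24 (adjusted p = 0.000623), and Gpd1, a glycerol-3-phosphate dehydrogenase, by 0.16 (adjusted p = 9.47e-05, edgeR). Within strata the list's median was 0.14 in morphine-injected adults, 0.25 in saline-injected adults, -0.04 in morphine-injected adolescents and 0.12 in saline-injected adolescents, with 2, 0, 0 and 0 genes past the threshold where 1.92%, 0.0310%, 1.11% and 0.0103% of all genes passed. With morphine in the average over strata 0 of the 29 passed, where 0.316% of all genes did, and their median was 0.07. Between ages 2 were higher and 5 lower in adults in the average, where 9.11% of all genes were higher and 11.2% lower, with a list median of 0.01. Mfsd2a, a lipid transporter of brain endothelium, was among the lower ones at -0.25 (adjusted p = 3.55e-05, edgeR).

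Per1, a clock gene with a glucocorticoid response element, was the gene of these lists whose antibiotics difference depended on morphine. In adolescents it averaged 114 ± 13.3 CPM with antibiotics and morphine (SD, n = 5), 139 ± 14.0 CPM with antibiotics and saline (SD, n = 3), 138 ± 10.01 CPM with water and morphine (SD, n = 5) and 99.7 ± 11.98 CPM with water and saline (SD, n = 5). The interaction was -0.75 (SE 0.12, adjusted p = 0.00341, edgeR), where 0.0621% of all genes passed. Per1 was thus higher with morphine on water, by 0.47 (adjusted p = 0.00782, edgeR), and had no such rise on antibiotics, where its mean was lower with morphine. The call on water was lost in 2 of 19 alternatives.

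Of 12 chaperones and coregulators of the receptor, 0 rose and 5 fell with antibiotics in the average, where 5.16% of all genes rose and 5.05% fell, with a list median of -0.04. Ppid, the immunophilin CYP40 that sits at the same place in the chaperone complex as FKBP51, fell by 0.17 (adjusted p = 0.000146, edgeR). Between ages 4 of the 12 were higher in adults and 0 lower, where 9.11% of all genes were higher, among them the coactivators Ncoa1 at 0.13 and Ncoa2 at 0.11 and the corepressor Ncor1 at 0.14 (adjusted p = 5.16e-05, 0.00119 and 2.94e-05, edgeR). With morphine in the average 0 of the 12 passed, where 0.316% of all genes did. Of 8 genes for steroid supply and the corticotropin-releasing hormone system, 1 rose and 1 fell with antibiotics, where 5.16% of all genes rose and 5.05% fell. In adults 2 of the 8 were higher and 1 lower, where 9.11% of all genes were higher and 11.2% lower.

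Markers of other cells also moved with antibiotics. Of 5 microglia markers, 4 fell in the average over strata and 0 rose, where 5.05% of all genes fell, with Cx3cr1 at -0.24 and Tmem119 at -0.22 (adjusted p = 5.91e-06 and 0.000205, edgeR). Their summed level in adults was 172.6 to 205.2 CPM with antibiotics and morphine, 198.7 to 213.5 CPM with antibiotics and saline, 215.8 to 235.7 CPM with water and morphine and 214.6 to 233.8 CPM with water and saline. In adolescents it was 192.8 to 222.1 CPM with antibiotics and morphine, 221.8 to 247 CPM with antibiotics and saline, 207 to 247 CPM with water and morphine and 245.4 to 289.5 CPM with water and saline. Of 6 astrocyte markers 2 fell, Aqp4 by 0.46 and Slc1a3 by 0.14, and of 6 endothelial markers 1 fell, Slco1c1 by 0.35. No marker of these 3 lists was at 0 in a group. None of 5 striatal markers passed, but their summed level was higher with antibiotics without overlap in 3 of the 4 strata. In morphine-injected adults it was 135.5 to 147.1 CPM on antibiotics, against 106.9 to 131.2 CPM on water, and in saline-injected adults 124.1 to 158.1 CPM on antibiotics, against 109.7 to 121.8 CPM on water. In morphine-injected adolescents it was 140 to 150.4 CPM on antibiotics, against 127.6 to 139.1 CPM on water. In saline-injected adolescents it was 130 to 142.1 CPM on antibiotics, against 100.5 to 960.5 CPM on water, where the pair overlapped with and without replicate 1. Cx3cr1 (-0.17, adjusted p = 0.0104) and Tmem119 (-0.16, adjusted p = 0.0489, edgeR) were lower with morphine in the average. There 0.316% of all genes passed, and the other microglia markers did not. Over the 35 libraries the mean log2 CPM of the microglia markers correlated at -0.853 with Plin4, -0.712 with Fkbp5 and -0.595 with Sult1a1. It also correlated at -0.647 with Zbtb16, -0.532 with Nr3c2 and 0.583 with Cdkn1a. That of the astrocyte markers correlated at -0.642 with Plin4, -0.633 with Zbtb16, -0.534 with Fkbp5, -0.485 with Sult1a1 and 0.394 with Cdkn1a. Group means were not removed from these marker correlations. Between ages 4 of 5 microglia markers were lower in adults, where 11.2% of all genes were lower. The 3 pancreatic islet transcripts were lower too, and 7 adolescent libraries held 319 to 735 counts of Ins2. With the islet libraries given a term of their own the Zbtb16 call for morphine in adolescents on water ended, with a log2 fold change of 0.41 and an adjusted p of 0.0542. The part of these markers in the results for the 10 genes was not tested.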

How the data were processed

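Polyadenylated RNA was sequenced, and the deposited table holds whole read counts per gene and library as the authors made them, with STAR 2.7.10a, DESeq2 and mm10 named in the submitters' processing notes. No source used here names the annotation release or the strand setting. Symbols, exon lengths and coordinates are from GENCODE M21 (GRCm38), whose identifier versions are older than the table's for all 10 genes.

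Of the libraries, 35 had at least 1000000 counts, and these were fitted with edgeR 4.0.16 under R 4.3.3: filterByExpr on the 8 groups (19332 genes kept), TMM scaling, 1 robust quasi-likelihood fit with a mean per group, and p-values adjusted by Benjamini-Hochberg across the whole table within each of 12 comparisons of 2 groups, 3 averages and 4 interactions, at a threshold of 0.05. The common biological coefficient of variation was 10.9%. Correlations use log2 CPM with a prior count of 2. The procedure was tested on counts simulated independently for each gene and library, a test that cannot speak to libraries that stand apart.

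The genes, the lists and the tests were chosen with earlier results of these data known. By rule, log2 fold changes are given for each of the 10 genes that passed, for the smallest p where none passed, and for up to 4 passing list genes per comparison, and values that did not pass stand beside them where another stratum passed. Likeness to Fkbp5 was ranked among genes with a mean of at least 1 CPM. Alternatives were DESeq2 1.42.0, edgeR with DESeq2 size factors, limma-voom (limma 3.58.1) with sample weights, no filter, the compared groups alone, all 37 libraries, 34 libraries, a term for islet reads, the replicate number as a block and each library left out in turn. No 2 libraries agreed within sampling noise.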

Additional observations from a re-analysis of the deposited data

Results flagged for a closer look

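Single libraries stood far from the rest of their group in 3 of the 60 groups of 4 or 5 libraries examined for the 10 genes, and the criterion (Dixon) is set at a level that chance passes in about 1 in 20 such groups. Fkbp5 was at 56.73 CPM in adolescent antibiotics morphine replicate 1, against 36.64 to 42.29 CPM in the other 4 libraries of that group. Zbtb16 was at 39.78 CPM in adolescent water saline replicate 1, against 55.19 to 56.98 CPM in the group's other 4 libraries. Tsc22d3 was at 73.0 CPM in adult antibiotics morphine replicate 3, against 50.71 to 52.82 CPM in the group's other 3 libraries.

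In 2 cases the size of a difference depended on another factor in a direct test. The morphine difference of Zbtb16 was lower in adults than in adolescents, with a log2 difference of -0.6507. The antibiotics difference of Per1 in adolescents was lower with morphine than with saline, with a log2 difference of -0.7503.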

How the results depend on the processing

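Of the 23 calls among the 10 genes, 13 were kept under every alternative run for them and 15 whichever single library was left out. The 2389 alternative values, over all results and list genes, include counts, which have no direction. No log2 fold change among them changed sign. The kept ones include Plin4, Fkbp5 and Sult1a1 for antibiotics in the average, all 5 age calls in the average and the dependence of the Zbtb16 morphine difference on age. Counts of the 10 genes moved by more than 1.5 times as follows. For morphine in adolescents on water, 1 became 0 with 34 libraries, limma-voom, no filter, the compared groups alone or a term for islet reads, and 0 to 1 passed with 1 library left out. For morphine in adolescents on antibiotics, 0 became 2 with 34 libraries, DESeq2, limma-voom or the replicate block, 1 with all 37 libraries and 3 with the compared groups alone. For antibiotics in saline-injected adults, 1 became 2 with 34 libraries or limma-voom and 0 with no filter or the compared groups alone, and 0 to 2 passed with 1 library left out. For antibiotics in morphine-injected adolescents, 2 became 1 with no filter, and 0 to 2 passed with 1 library left out. For antibiotics in morphine-injected adults, 3 became 1 with the compared groups alone, where Plin4 had an adjusted p of 0.0502. For age with water and saline, 2 became 0 with the compared groups alone, and 1 to 3 passed with 1 library left out. For age with water and morphine, 0 became 1 with the compared groups alone. For antibiotics in the average, 3 became 5 with 34 libraries and 6 with limma-voom, and 3 to 5 passed with 1 library left out. For morphine in the average, 1 became 3 with 34 libraries, DESeq2 or limma-voom and 2 with the replicate block, and 0 to 3 passed with 1 library left out. Smaller moves were those of antibiotics in morphine-injected adolescents, where 2 became 3 with limma-voom or the compared groups alone, of antibiotics in morphine-injected adults, where 3 became 2 with no filter and 2 to 3 passed with 1 library left out, and of antibiotics in the average, where 3 became 4 with DESeq2. For age, 2 became 3 with water and saline under 34 libraries, DESeq2, limma-voom or the replicate block, and 3 became 2 with antibiotics and saline under DESeq2 or the compared groups alone, with 2 to 3 passing with 1 library left out. The compared groups alone leave fewer libraries to estimate the spread, no filter tests more genes, and the cause of the other shifts was not tested.

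The count over all genes depended on the setting too. For morphine in adolescents on water it was 64, with 1 to 164 under the other settings and 9 to 262 with 1 library left out. For antibiotics in the average it was 1975, with 1313 to 3199 under the other settings. For age with water and saline it was 655, with 11 to 1837, and for antibiotics in morphine-injected adults 371, with 245 to 703. Samples of different groups share only a replicate number: over 45 same-numbered pairs the correlation of deviations was -0.215 to 0.277, 8 pairs were over 0.1, and 12 libraries correlated best with their own number. The replicate block changed no count of the 10 genes other than those given. The lowest count of the 10 genes was one of Plin4, which had 9 to 420 counts per library.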
